A study of Mus musculus with 17 samples.

Results

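The genes described here handle estrogen and other steroid hormones: the estrogen receptor alpha gene Esr1, the steroid synthesis gene Cyp17a1, the hydroxysteroid dehydrogenases Hsd17b2, Hsd17b7, Hsd17b11 and Hsd17b12, the steroid reductases Srd5a1 and Akr1d1, the corepressor gene Nrip1, and Igfbp1. They were taken as the probes whose symbol in the array's annotation is 1 of these 10 names, among 20794 probes, of which 12771 carried a symbol and named 9030 genes. 6 of the 10 had a probe, with 10 probes in all: 4 for Esr1, 2 for Hsd17b11, and 1 each for Cyp17a1, Hsd17b2, Hsd17b12 and Igfbp1. No probe carried the name or a listed synonym of Nrip1, Hsd17b7, Srd5a1 or Akr1d1, and these 4 genes were not analysed here.

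The alpha-fetoprotein of the mouse binds estrogens with high affinity, and in the fetus it keeps maternal estrogen out of tissues. Inside a liver cell estradiol binds the receptor encoded by Esr1, which acts on transcription together with cofactors. Cyp17a1 encodes the 17-alpha-hydroxylase and 17,20-lyase that leads from progestins to androgens. Enzymes of the 17-beta-hydroxysteroid dehydrogenase family interconvert active and weakly active steroids or act on fatty acids, and Igfbp1 encodes a secreted binding protein for insulin-like growth factors whose transcription insulin represses.

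RNA from the liver of Afp knockout mice (AFP1 kO in the series' own wording) was compared on cDNA arrays with pooled RNA of wild-type livers, which carried the other dye. The adult group held 6 mutant males of 17 weeks on 11 arrays, compared with a pool of 6 wild-type males of that age. Animals 1, 2, 3, 4 and 6 were measured with the mutant in Cy5 and again with the mutant in Cy3, and animal 5 has no array with the mutant in Cy3. The fetal group held 6 mutant embryos, 3 male (embryos 1 to 3) and 3 female (embryos 4 to 6), all with the mutant in Cy5. Their pool names the same 4 wild-type animals on every array, but its sex is labelled male on the arrays of embryos 1 and 2 and female on those of embryos 3 to 6. The labels give embryonic day 7.5 for tissue called fetal liver, although the mouse liver bud forms later than that day, so the age is kept here as a label. The sources used here do not give the strain, how the knockout allele was made, or whether the wild-type animals were littermates.

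Values are log2 ratios of mutant over pool, so that 0 means equal signal and 1 means 2 times the signal of the pool. They carry no level of a gene in either RNA, so neither liver identity nor the order of the genes by abundance could be checked. In whole liver, fewer cells of a type and less RNA per cell cannot be told apart. Wild-type animals were measured only as pools, so their own spread enters no test. The arrays held 20078 to 20697 values each, with array medians between -0.105 and 0.085. Afp itself, the targeted gene, lay between -8.79 and -8.11 in the 6 embryos, with a mean of -8.40 (limma, adjusted p = 1.25e-08). In the adults it lay between -0.19 and 0.34 with a median of -0.08 (adjusted p = 0.944), so the adult arrays leave the knockout label unchecked. The direction of the adult arrays with the mutant in Cy3, and the fetal names, taken 11 rows below their probe, were inferred from the values.

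The Igfbp1 promoter is printed because Igfbp1 had the widest range of the 6 genes among the embryos, and because it holds a short motif that binds insulin-regulated FOXO factors in the promoters of Igfbp1 genes. The 250 bases before its start lie on the plus strand at chr11:7197537-7197786 (RefSeq, GRCm38.p6, a build that the array files do not name), upstream of the first exon. Capitals mark CAAAACA, the core of that motif, from base -108 to base -102 counted from the start.
Igfbp1: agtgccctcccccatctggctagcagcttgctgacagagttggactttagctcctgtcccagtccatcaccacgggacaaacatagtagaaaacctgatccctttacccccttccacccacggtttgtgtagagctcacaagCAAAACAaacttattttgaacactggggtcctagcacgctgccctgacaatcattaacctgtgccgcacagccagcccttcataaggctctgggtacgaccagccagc
Within windows of 300 bases, 250 before to 50 after the start, CAAAACA on either strand occurred in 2064 of 32851 RefSeq promoters (6.28%), with 1 match in Igfbp1. The estrogen response half-site AGGTCA (16.3% of promoters), the full element GGTCANNNTGACC (0.07%, overlapping the half-site in its GGTCA) and the TATA box letters TATAAA (13.6%) had no match there. The windows of Hsd17b11, Hsd17b12 and both listed starts of Esr1 held none of the 4 motifs. A promoter sequence was found for 4 of the 6 measured genes, and Cyp17a1 and Hsd17b2 are named only. A match is a string of letters and was not tested as a binding site.

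In adult liver, with the arrays of each animal averaged over both dyes, 0 of the 6 genes changed at an adjusted p under 0.05. The background in this comparison was 0 of 17039 features called (0%) by limma, with 1321 (7.75%) at an unadjusted p under 0.05, against 1 of the 6 genes, Hsd17b12. The median estimate of the 6 genes was -0.18, beside 0.01 over all features, and 2 of the 6 lay above 0, beside 51.8% of all features. With the orientations taken apart, Cyp17a1 alone passed with the mutant in Cy5 (1 of 6 genes, background 6.55% of 16896 features) and 0 of 6 passed with the mutant in Cy3 (background 4.19% of 16695). Within animals, a dye part was computed as the Cy5 value minus the Cy3 value divided by 2. It is the part of the ratio that goes with the dye if the Cy3 arrays are mutant over pool as deposited. It passed for 1 of 6 genes, again Cyp17a1 (background 9.09% of 16396). With the Cy3 arrays turned in sign, 0 of 16396 features passed in it.

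Of the 6 genes, Cyp17a1 had the adult values that differed most between the dyes. With the mutant in Cy5, animals 1 to 6 stood at 0.15, 1.36, 1.06, 1.18, 1.21 and 1.22, a mean of 1.03 ± 0.44 (SD, n = 6, limma, adjusted p = 0.0299). With the mutant in Cy3, animals 1, 2, 3, 4 and 6 stood at -0.16, 0.23, -1.13, -0.81 and -0.80, a mean of -0.53 ± 0.55 (SD, n = 5, adjusted p = 0.221). So 6 of 6 animals lay above the pool in one orientation and 4 of 5 below it in the other, with only animal 2 above 0 in both. The part going with the dye was 0.76 ± 0.40 (SD, n = 5, adjusted p = 0.0217), positive in 5 of 5 animals. Averaged over both dyes, the 6 animals ran from -0.03 through a median of 0.20 to 1.21, the highest being animal 5, which has no array with the mutant in Cy3. The mean was 0.39 ± 0.50 and did not pass (adjusted p = 0.643), and without animal 5 it was 0.23.

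The adult call of Cyp17a1 depended on how the Cy3 arrays are read. If those arrays are turned in sign, the adult mean becomes 0.84 (limma, adjusted p = 0.0130, in a fit that called 10.4% of features) and the part going with the dye falls to 0.23 (adjusted p = 0.680). The Cy5 rise passed in 1 of 6 fits that left out an animal, the one without animal 1, whose value of 0.15 stands far below the other 5. That fit called 1649 of 16692 features (9.88%). Without animals 2, 3, 4, 5 or 6 the adjusted p lay between 0.0521 and 0.0990, with means of 0.96 to 1.02. Those fits called 0 or 1 feature each, so the loss of the call was shared by nearly all features.

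**Figure D1:**
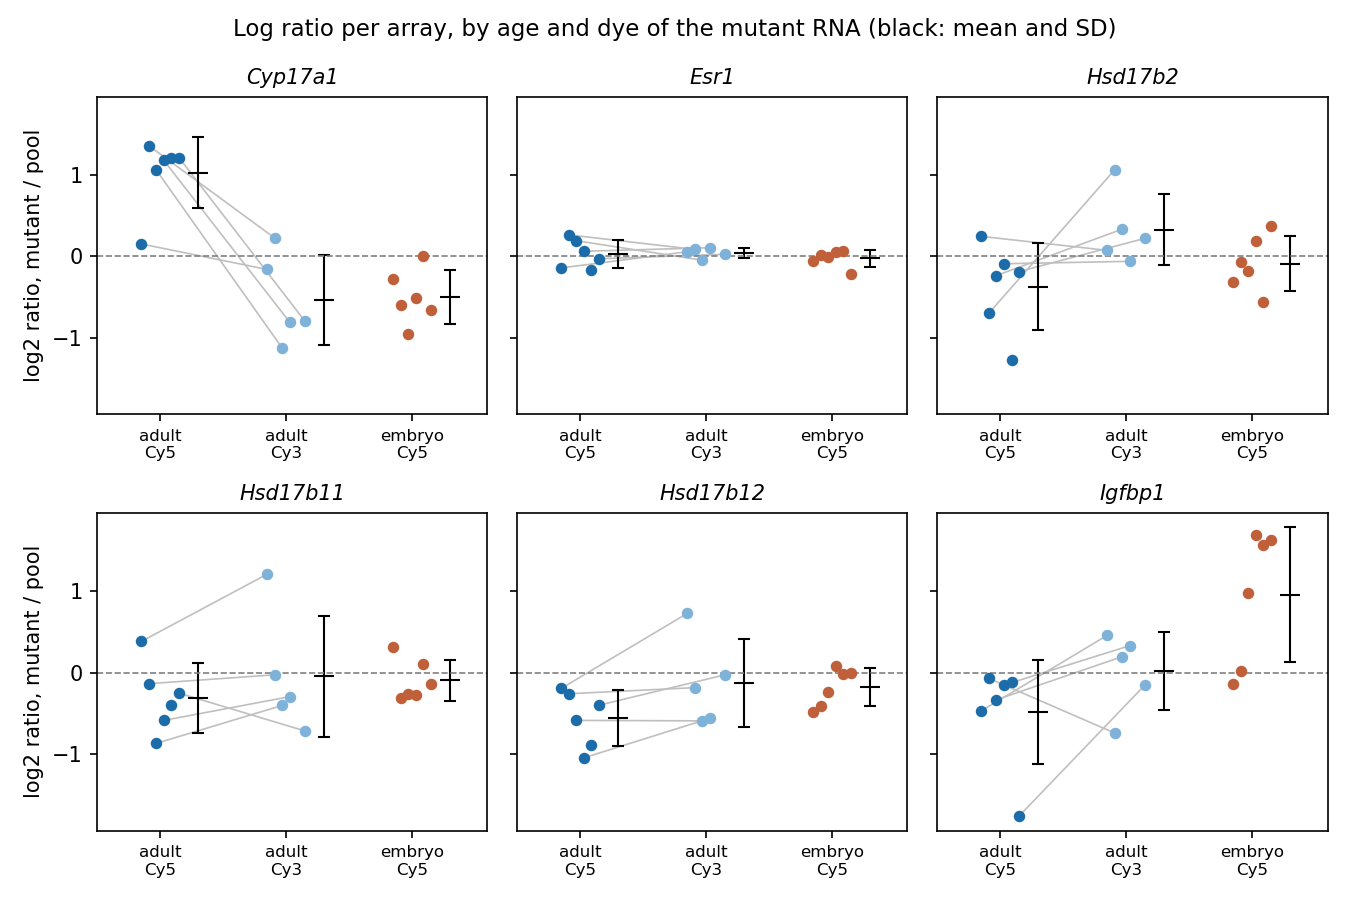
Log2 ratio of mutant over pool (y axis) for the 6 measured genes on each array, for adults with the mutant in Cy5 (dark blue), adults with the mutant in Cy3 (light blue, lines joining arrays of the same animal) and embryos (orange), with mean and SD in black. Cyp17a1 goes from 1.03 with the mutant in Cy5 to -0.53 with the mutant in Cy3, while Esr1 stays within 0.27 of 0 on every array and 4 of 6 embryos lie at 0.98 or more for Igfbp1.

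In the embryos Cyp17a1 lay on the other side of the pool. Embryos 1 to 6 stood at -0.28, -0.60, -0.96, -0.52, 0.00 and -0.66, a mean of -0.50 ± 0.33 (SD, n = 6), which did not pass (limma, adjusted p = 0.100). 5 of the 6 embryos were below 0 and embryo 5 stood at the level of the pool. All fetal arrays carry the mutant in Cy5, the orientation in which the adult dye part of this gene was positive. With that adult value subtracted the fetal mean was -1.27 (limma, adjusted p = 0.000500), in a fit that called 30.0% of 16440 features. The same adult value was taken from every embryo as if known exactly. Its own error (SE 0.16, n = 5 adults) therefore enters no p-value of that fit, and those p-values are too small. With fetal names as deposited the mean was 0.13.

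The difference between the ages was tested on arrays that share the dye orientation, adults with the mutant in Cy5 against the embryos. Cyp17a1 was 1.53 higher in the adults (95% confidence interval 1.06 to 2.01, limma, adjusted p = 0.0190). It was the 1 of 6 genes that passed, against 23 of 16314 features (0.141%). Its adult values, 0.15 to 1.36, did not overlap the fetal ones, -0.96 to 0.00, and it was likewise the 1 of 6 genes without overlap, against 374 of 16314 features (2.29%). Age, pool and embryo labels change together in this comparison and cannot be told apart. The call passed in 4 of 12 fits that left out an animal or embryo, those without adult 1, 3 or 6 or embryo 5. Differences were 1.44 to 1.71 and adjusted p 0.00121 to 0.0651 over all 12 (limma). The 4 fits called 7.59%, 0.0681%, 0.111% and 0.48% of all features, in that order, and the other fits 4 to 9 features each. With adult means over both dyes the difference was 0.90 (adjusted p = 0.127).

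Over the 12 arrays with the mutant in Cy5, the genes whose ratios followed Cyp17a1 most closely among 8050 named genes were Mcm2 (Pearson r = 0.961), a subunit of the replicative helicase, Wdr13 (0.960) and 6430548M08Rik (0.951). These r values describe arrays that share a dye orientation and 1 pool per age. Within the 6 adults they were 0.716 for Mcm2, 0.954 for Wdr13 and 0.905 for 6430548M08Rik, and within the 6 embryos 0.895, 0.844 and 0.862. All 3 also had a positive dye part, of 0.50, 0.59 and 0.32.

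**Figure D2:**
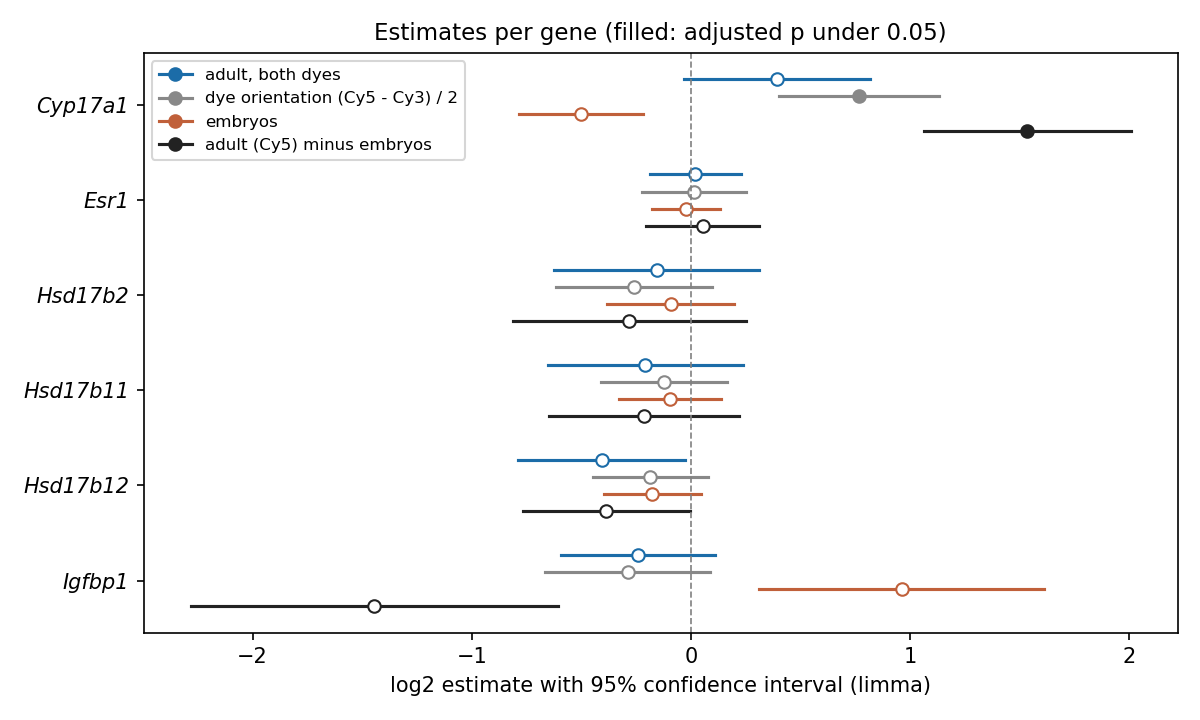
Estimates by limma with 95% confidence intervals on the log2 scale (x axis) for the 6 genes in 4 fits, adults over both dyes (blue), the part going with the dye (grey), embryos (orange) and adults in Cy5 minus embryos (black), with filled points where the adjusted p was under 0.05. Only Cyp17a1 has filled points, at 0.76 for the dye part and 1.53 between the ages, and the interval of Igfbp1 between the ages, -2.28 to -0.61, lies wholly below 0.

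Esr1 stood close to the pool in every group. Its gene mean in adults with the mutant in Cy5 ran from -0.17 to 0.27 with a median of 0.02, and with the mutant in Cy3 animals 1, 2, 3, 4 and 6 stood at 0.06, 0.09, -0.05, 0.11 and 0.03. Over both dyes the mean was 0.02 (95% confidence interval -0.19 to 0.23, limma, adjusted p = 0.947). The embryos stood at -0.05, 0.02, 0.00, 0.05, 0.07 and -0.22, a mean of -0.02 (interval -0.18 to 0.13, adjusted p = 0.867). The ages differed by 0.05 (interval -0.21 to 0.31). No bound of these 3 intervals exceeds 0.31 in size.

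The 4 Esr1 probes, which share 1 transcript accession, did not read alike. Probe 5432 lay above 0 in 6 of 6 embryos, at 0.32 ± 0.12 (SD, n = 6, limma, adjusted p = 0.0921), while probe 10407 lay below 0 in 6 of 6, at -0.37 ± 0.34 (adjusted p = 0.163). Probe 7116 was the steadiest in the embryos, at 0.03 ± 0.07, and the most scattered in the adults with the mutant in Cy5, from -1.40 to 0.69. Probe 5432 differed in sign between the adult orientations as deposited, at 0.32 with the mutant in Cy5 and -0.31 with it in Cy3. Probe 19038 stood at -0.03 and 0.41. None of the 4 probes passed when each probe was tested on its own. The near-zero gene mean is therefore a mean of probes with opposite signs in the embryos. The genes most like Esr1 over the 12 arrays were Vps4a (r = 0.902), Slc7a6 (0.878) and Ppp6r1 (0.875).

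**Figure D3:**
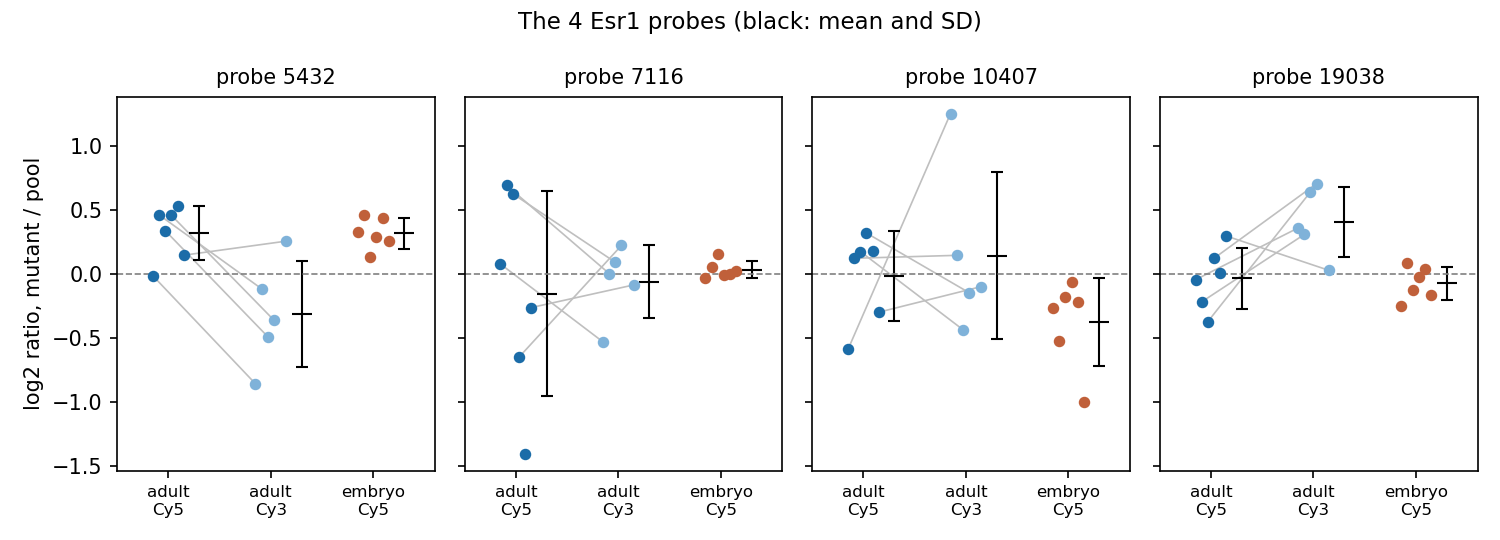
Log2 ratio of mutant over pool (y axis) on each array for the 4 Esr1 probes, grouped by age and dye of the mutant RNA, with mean and SD in black and lines joining arrays of the same adult animal. In the embryos probe 5432 sits at 0.32 and probe 10407 at -0.37, and the adult Cy5 points of probe 7116 spread from -1.40 to 0.69.

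The 3 measured hydroxysteroid dehydrogenases did not pass in any of the 7 fits. Hsd17b12 reduces 3-ketoacyl-CoA in the elongation of very long chain fatty acids and can convert estrone to estradiol. With the adult mutant in Cy3 the lowest mean ratio of the 6 genes was that of Cyp17a1, at -0.53. Over both dyes and with the mutant in Cy5, it was that of Hsd17b12. With the mutant in Cy5 animals 1 to 6 stood at -0.19, -0.26, -0.59, -1.05, -0.89 and -0.40, all below the pool, with a mean of -0.56 ± 0.35 (SD, n = 6, limma, adjusted p = 0.0635). On the Cy3 arrays the 5 animals stood at 0.73, -0.18, -0.59, -0.56 and -0.03, and 4 of 5 were below it. Over both dyes the mean was -0.41 ± 0.44 (adjusted p = 0.639), with animal 1 alone above 0. With arrays scaled to the same spread the Cy5 mean was -0.42 and passed (adjusted p = 0.0442, with 7.83% of features called). In the embryos Hsd17b12 stood at -0.48, -0.41, -0.23, 0.08, -0.01 and 0.00, so that the 3 males were lower than the 3 females (mean -0.18, adjusted p = 0.332).

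Hsd17b2 oxidises estradiol to the weaker estrone. In adults with the mutant in Cy5 it stood at 0.25, -0.70, -0.23, -0.09, -1.28 and -0.19, and in the 5 animals with the mutant in Cy3 at 0.07, 1.07, 0.34, -0.06 and 0.22. The sign of its mean thus differed between the orientations, -0.37 ± 0.54 against 0.33 ± 0.44, and neither passed (limma, adjusted p = 0.272 and 0.350). Over both dyes it stood at -0.16 ± 0.56 (adjusted p = 0.817), and without animal 5 at 0.07. The embryos ran from -0.56 through a median of -0.12 to 0.38, with a mean of -0.09 (adjusted p = 0.700).

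Hsd17b11 encodes a dehydrogenase of androstane steroids found on lipid droplets. Its 2 probes averaged 0.38, -0.14, -0.87, -0.59, -0.40 and -0.25 in adults with the mutant in Cy5, and 1.21, -0.03, -0.40, -0.30 and -0.72 with the mutant in Cy3. In this mean of 2 probes, animal 1 was the highest in both orientations and the only animal above 0. The probes did not read alike. Over both dyes probe 17832 reached 1.41, with 1 of 6 animals above 0, and probe 20527 reached 0.19, with 2 above 0. The mean of the 2 probes over both dyes was -0.21 ± 0.53 (limma, adjusted p = 0.754), and -0.41 without animal 1 or -0.12 without animal 3. In the embryos 1 of the 2 probes could be used, since the other lies beyond the probes whose fetal names were moved, and it stood at 0.31, -0.31, -0.27, -0.28, 0.11 and -0.14, a mean of -0.10 (adjusted p = 0.613).

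Adult animal 1 also stood apart in hepatocyte markers. The median of 8 hepatocyte marker genes over both dyes was 0.40 in animal 1 and -0.03, -0.68, -0.79, -0.24 and -0.71 in animals 2 to 6. In the same animals Hsd17b12 stood at 0.27, -0.22, -0.59, -0.81, -0.89 and -0.21. The mean of the 2 Hsd17b11 probes, which did not read alike, stood at 0.80, -0.08, -0.64, -0.44, -0.40 and -0.48. On the Cy5 arrays alone animal 1 was again the highest for these markers, at 0.56 against at most 0.15 in the others. Over the list, 0 of 8 hepatocyte genes lay above 0 in the adults (median -0.31), but 5 of 8 (median 0.05) with the Cy3 arrays turned in sign. In the embryos 6 of 7 lay above 0 (median 0.18), and 0 passed at either age. The part of hepatocyte RNA in the values of these dehydrogenases was not tested. Of 10 markers of steroid-producing adrenal cortex or gonad, listed because Cyp17a1 is a gene of those tissues, 7 had a probe. Their median lay between -0.16 and 0.14 in the adults over both dyes, between -0.30 and -0.02 in the adults with the mutant in Cy5 where Cyp17a1 rose, and between -0.23 and 0.12 in the embryos, with 0 of 7 passing at either age.

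Igfbp1 had the highest fetal mean of the 6 genes. Embryos 1 to 6 stood at -0.13, 0.02, 0.98, 1.70, 1.57 and 1.64, a mean of 0.96 ± 0.83 (SD, n = 6), which did not pass (limma, adjusted p = 0.129). Embryos 1 and 2 stood at the pool and the other 4 far above it, with no value between 0.02 and 0.98. In all, 0 of the 6 genes passed in the embryos, against 26 of 17242 features (0.151%). With the adult dye part of Igfbp1 subtracted, which was -0.29, the fetal mean was 1.25 and passed (adjusted p = 0.0139), in the fit that called 30.0% of features. The error of the subtracted value enters no p-value there either.

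The embryos differed by sex and by the labelled sex of the pool together. The 4 embryos hybridised with the pool labelled female averaged 1.47 ± 0.33 (SD, n = 4, lowest 0.98), and the embryos with the pool labelled male stood at -0.13 and 0.02. Embryo 3, a male with the pool labelled female, stood at 0.98, between the other males and the 3 females, which lay between 1.57 and 1.70. Female minus male embryos, Igfbp1 differed by 1.34 (limma, adjusted p = 0.998) and Hsd17b12 by 0.40 (adjusted p = 0.998). Both were at an unadjusted p under 0.05, and 0 of the 6 genes passed, against 2 of 17212 features (0.0116%). Sex and pool label coincide in 5 of 6 embryos, and they cannot be told apart. Igfbp2, chosen from the 13 measured genes of the growth factor system after their values were seen, stood at -0.37 and -0.16 in embryos 1 and 2 and 0.62, 0.49, 0.36 and 1.23 in embryos 3 to 6. Other genes of that system went the other way, with the pool labelled female minus the other at -0.82 for Socs2 and -0.36 for Igf2. The means of Cyp17a1 were -0.44 and -0.53 for the pools labelled male and female. Markers of acinar pancreas lay below 0 in the embryos for 4 of 4 genes, with Cela2a at -1.30 and Cpa1 at -1.17 passing (limma, adjusted p = 0.0467 each). They passed in 0 of 6 fits without 1 embryo, which called 2 to 5 features each. In those fits Cela2a ran from -1.43 to -1.18 and Cpa1 from -1.31 to -1.06. The median of the 4 markers was -1.81, -1.45, -0.57, -0.85, -1.21 and -1.08 in embryos 1 to 6, lowest in the embryos where Igfbp1 stood at the pool. The part of these markers in the values of Igfbp1 was not tested.

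**Figure D4:**
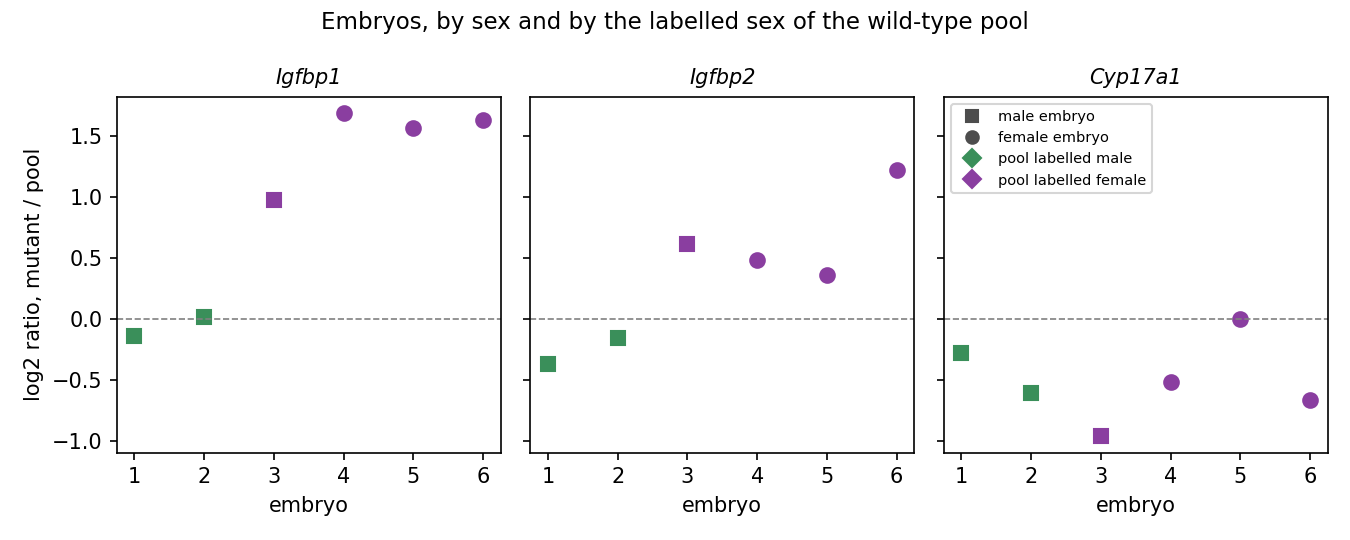
Log2 ratio of mutant over pool (y axis) in each of the 6 embryos (x axis) for Igfbp1, Igfbp2 and Cyp17a1, with squares for male and circles for female embryos, green where the wild-type pool is labelled male and purple where it is labelled female. The purple points of Igfbp1 lie between 0.98 and 1.70 and the green ones at -0.13 and 0.02, while the 2 colours overlap for Cyp17a1.

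In adult liver Igfbp1 lay below the pool with the mutant in Cy5 and on both sides of it with the mutant in Cy3, without passing. With the mutant in Cy5 animals 1 to 6 stood at -0.47, -0.07, -0.33, -0.15, -0.11 and -1.76, and with the mutant in Cy3 the 5 animals stood at 0.46, -0.74, 0.20, 0.33 and -0.15. Animal 6 was far below the others in the first set. The mean over both dyes was -0.24 ± 0.39 (limma, adjusted p = 0.678). Without animal 6 it was -0.10, and the Cy5 mean went from -0.48 to -0.23. Adults in Cy5 minus embryos, Igfbp1 differed by -1.44 (95% confidence interval -2.28 to -0.61), which did not pass (adjusted p = 0.0871). The other genes differed between the ages by -0.39 for Hsd17b12, -0.28 for Hsd17b2 and -0.21 for Hsd17b11, and none of these passed. The Hsd17b11 value sets a mean of 2 probes in the adults against 1 probe in the embryos. For probe 17832, the one measured at both ages, the difference was 0.04.

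The genes around these members were read from 9 lists, chosen with earlier results of these data known and described by counts alone. Of the insulin-like growth factor system, 13 of 20 genes had a probe. 0 of 13 passed at either age, with 3 above 0 in the adults (median -0.07), or 6 (median -0.01) with the Cy3 arrays turned, and 9 in the embryos (median 0.05). In the adults the smallest p belonged to Igfals, the acid-labile subunit of circulating growth factor complexes, at -0.33 ± 0.33 (limma, adjusted p = 0.641). In the embryos it belonged to Igfbp1, followed by the binding protein gene Igfbp6 at 0.35 ± 0.27 (adjusted p = 0.132). Adult animal 6, lowest for Igfbp1 at -0.96 over both dyes, was also the lowest for Igfals at -0.83.

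Of the receptors and cofactors of estrogen signalling, 11 of 20 genes had a probe, and 0 passed in adults over both dyes or in the 9 tested in embryos, with medians of 0.02 (-0.02 with the Cy3 arrays turned) and -0.02. The coactivator gene Ncoa3 and the estrogen-related receptor gene Esrra passed in the dye part, at 0.84 and 0.66 (limma, adjusted p = 0.0216 and 0.0122), as Cyp17a1 did. Over both dyes Ncoa3 stood at 0.46 ± 0.45 and Esrra at 0.02 ± 0.35, and neither passed. Esrrg, another receptor of that family, had an adult mean of 3.09 with an SD of 7.06 and is named after its values were seen, since it lies alone at the right of the plot of gene lists.

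Of the steroid hormone synthesis genes 14 of 23 had a probe. 0 passed in the adults over both dyes, where 5 of 14 lay above 0 (median -0.06). With the Cy3 arrays turned 8 of 14 lay above 0 (median 0.13) and 3 passed, in a fit that called 10.4% of all features. In the embryos 0 of 13 passed, with 8 above 0 (median 0.05). Other lists also gained calls in the turned adult fit. There 3 of 10 passed for hydroxylation and conjugation and 2 of 11 for the receptors and cofactors. The lists of dehydrogenases and reductases, bile acid synthesis, fatty acid elongation and estrogen-responsive genes had 1 each, and the growth factor and late cholesterol lists 0. Stard3, which encodes a cholesterol transporter of endosomes, had a dye part of 0.93 (limma, adjusted p = 0.00732), which passed in 5 of 5 fits without 1 animal, and stood at 0.22 ± 0.42 over both dyes. Of the hydroxysteroid dehydrogenases and steroid reductases 11 of 26 had a probe. 3 of 11 lay above 0 at each age, with medians of -0.16 in the adults (-0.03 with the Cy3 arrays turned, and 5 above 0) and -0.10 in the embryos, and 0 passed at either age. Hsd11b2, which inactivates glucocorticoid, had a dye part of 0.66 (adjusted p = 0.0309). Hsd11b1, which regenerates active glucocorticoid, had the smallest p among them at both ages, at -0.27 ± 0.12 in the adults (adjusted p = 0.639) and -0.45 ± 0.30 in the embryos (adjusted p = 0.106).

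Of the enzymes that hydroxylate and conjugate steroids, 10 of 28 had a probe. In the adults 1 of 10 lay above 0, with a median of -0.32, against 51.8% of all features. This share moved with the reading of the arrays, to 4 of 10 (median -0.11) with the Cy3 arrays turned in sign and 3 of 10 (median -0.16) with the mutant in Cy5 alone. In the embryos 3 of 7 lay above 0, with a median of -0.01, and 0 passed at either age. Cyp3a11, a steroid and drug hydroxylase, stood at -0.71 ± 0.61 and Ugt1a6a, a glucuronosyltransferase, at -0.62 ± 0.54 in the adults (limma, adjusted p = 0.639 each). Gusb, the gene above 0 and named after its values were seen, stood at 1.38 ± 1.34 (adjusted p = 0.639). The smallest p in the embryos belonged to Papss1, at -0.62 ± 0.36 (adjusted p = 0.0891). The sulfotransferase gene Sult1a1 turned with the dye, rising by 0.57 with the mutant in Cy5 (adjusted p = 0.0439) and at -0.87 with the mutant in Cy3 (adjusted p = 0.0335). The glucuronosyltransferase gene Ugt2b38 fell by 1.23 with the mutant in Cy3 (adjusted p = 0.0443), and its dye part was 0.78 (adjusted p = 0.0187). Cyp3a13 had a dye part of 0.57 (adjusted p = 0.0257). The median of the hepatocyte markers in the adults was -0.31, or 0.05 with the Cy3 arrays turned, and their part in these values was not tested.

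Late cholesterol synthesis, the branch to which Hsd17b7 belongs, held the only listed gene of the 9 lists that passed in the embryos. Sc5d, the lathosterol 5-desaturase, rose by 0.56 ± 0.06 (SD, n = 6, limma, adjusted p = 0.0330), but passed in 0 of 6 fits without 1 embryo (adjusted p 0.0523 to 0.159). Its mean was 0.54 to 0.57 in those fits. They called 2 to 5 features each, so the loss of the call was shared by nearly all features. With fetal names as deposited Sc5d stood at -0.06. Lbr, a sterol reductase of the nuclear envelope, rose by 1.01 in adults with the mutant in Cy5 (adjusted p = 0.0299), where 6.55% of all features passed. That call passed in 1 of 6 fits without 1 animal. Its mean was 0.91 to 1.15 over those fits, which called 0 to 1649 features. Over both dyes Lbr stood at 0.37 ± 0.51 and did not pass (limma, adjusted p = 0.652). In the embryos 7 of 8 genes of the branch lay above 0 (median 0.19), and in the adults 2 of 8 (median -0.20), where 0 passed. Msmo1, a sterol C4-methyl oxidase, stood at 0.43 ± 0.27 in the embryos (adjusted p = 0.101) and -0.33 ± 0.42 in the adults.

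For the elongation of very long chain fatty acids, in which Hsd17b12 acts, 10 of 18 genes had a probe and 0 passed at either age. In the adults 3 of 10 lay above 0 (median -0.13). Tecr, the reductase that follows Hsd17b12 in the cycle, stood at -0.36 ± 0.32 and the elongase gene Elovl5 at -0.41 ± 0.43 (limma, adjusted p = 0.639 each). In the embryos 5 of 10 lay above 0, with Elovl7 at 0.35 ± 0.13 and Elovl6 at 0.26 ± 0.05 (adjusted p = 0.0881 and 0.0918). Bile acid synthesis genes with their nuclear receptors (16 of 22 with a probe) and estrogen-responsive or sex-biased liver genes (11 of 36) had 0 passing in adults over both dyes or in embryos. Their medians were -0.09 and -0.04 in the adults (-0.08 and 0.05 with the Cy3 arrays turned) and 0.06 and -0.07 in the embryos. In adults with the mutant in Cy5, Cyp17a1 passed as a gene of the latter list, and Hsd3b7, a dehydrogenase of bile acid synthesis, rose by 0.57 (adjusted p = 0.0435), with a dye part of 0.78 (adjusted p = 0.0228).

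**Figure D5:**
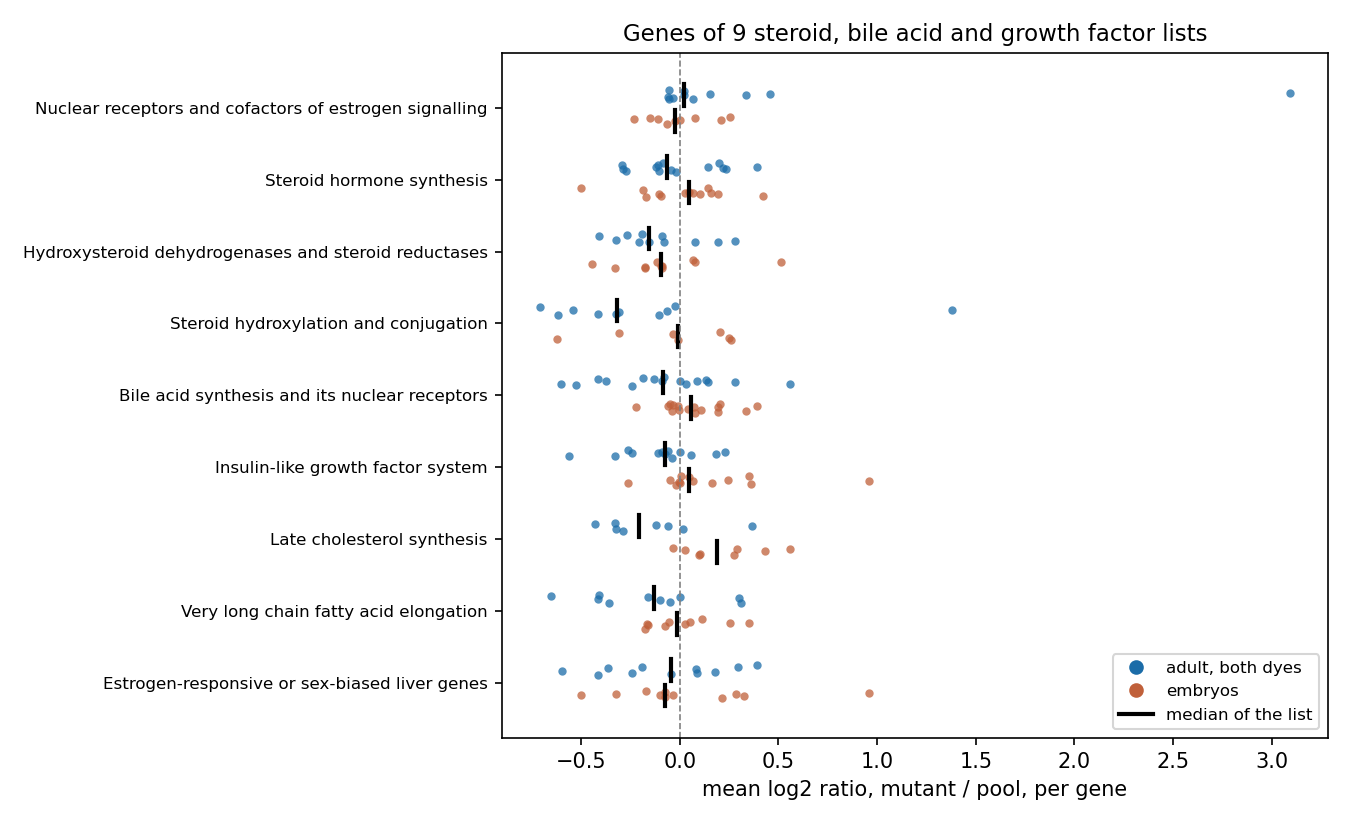
Mean log2 ratio of mutant over pool (x axis) of each measured gene in 9 lists (y axis), for adults over both dyes (blue) and embryos (orange), with black bars for the median of each list and age. The medians run from -0.32 for steroid hydroxylation and conjugation in the adults to 0.19 for late cholesterol synthesis in the embryos, and the point at 3.09 is Esrrg.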

How the data were processed

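The deposited values are log2 ratios in 1 table of 17 arrays, made by the authors from 2-colour cDNA arrays. The sources used here give neither image analysis nor normalization nor log base, and the base was inferred from the values. Per the labels' protocols, RNA was reverse transcribed and indirectly labelled with Cy3 or Cy5.

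Probe names came from the platform annotation, and a gene is the mean of its probes. Arrays with the mutant in Cy3 were kept as deposited. Their values beyond 10 in size are all negative, those of other arrays all positive. Going the other way, the 2 orientations of an animal correlated at -0.280 (median Spearman), though those of different animals did so at -0.246, and the consensus correlation of an animal's arrays was -0.318. Every adult mean over both dyes and every dye part depends on this choice. Fetal rows were moved by 11 up to probe 20000: the fetal mean then had a Spearman correlation of 0.375 with the adult dye part, against 0.018 as deposited.

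limma 3.58.1 in R 4.3.3 (lmFit, eBayes) was fitted on all features with values in at least 4 animals (2 of each sex for the sex comparison), with Benjamini-Hochberg adjusted p under 0.05 as the threshold. The ratio was tested against 0, or between 2 groups. The fits were tested on simulated data. P-values measure the spread between mutant animals alone, and the number of arrays limits the precision. The members and lists were chosen with earlier results of these data known. The text names all members with a probe, Afp, list genes that passed (up to 4 a list), otherwise those with the 2 smallest p at each age, and the 3 genes most like Cyp17a1 and Esr1. Alternatives changed the centring, scaling, filter, dye direction, fetal names, dye subtraction, blocking and animals included. Those with fetal rows moved for all probes, with the pool labelled female, and with list medians on turned Cy3 arrays were chosen after seeing the data.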

Additional observations from a re-analysis of the deposited data

Results flagged for a closer look

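Cyp17a1 was 1.53 higher in adults with the mutant in Cy5 than in embryos (limma, adjusted p = 0.0190), a tested difference between the ages in which age and pool change together. Afp differed between the ages by 8.29 (limma, adjusted p = 1.45e-12), with the embryos near -8.40 and the adults near 0.

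Of 28 groups of animals examined for 1 value far from the rest, 6 had one. Chance gives about 1 in 20 for separate groups, but these overlap. Each adult mean over both dyes is made from the Cy5 and Cy3 values, so the count cannot be set against that rate. Cyp17a1 in adults with the mutant in Cy5 had animal 1 at 0.15, below the other 5. Igfbp1 in the same arrays had animal 6 at -1.76. Hsd17b2 averaged over the arrays of each adult had animal 5 at -1.28, and that animal has no array with the mutant in Cy3. Afp had adult animal 6 as its highest value in all 3 sets, at 0.34 over both dyes, 0.34 with the mutant in Cy5 and 0.34 with the mutant in Cy3.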

How the results depend on the processing

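Of 534 recomputed values of the 6 genes, 477 kept their direction and their side of the threshold, 19 no longer passed, 4 newly passed and 34 changed sign. The cause was not tested for any of them. Most of the 477 were values that passed neither before nor after. All 19 belonged to Cyp17a1, the only gene with calls to lose. Between the ages 11 of its values no longer passed and 10 still did. With the mutant in Cy5 these counts were 5 and 5, and for the dye part 3 and 7. Genes passing became 2 in adults with the mutant in Cy5 when arrays were scaled to the same spread (7.83% of all features), and with the Cy3 arrays turned 1 in adults (10.4%) and 0 for the dye part (0%). They became 2 in embryos with the adult dye part subtracted, where 30.0% of all features passed and the error of the subtracted values was left out. Between the ages they became 0 with adult means over both dyes and 0 with the embryos whose pool is labelled female.

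Scaling turned Igfbp1 in Cy3 to -0.0176, the dye part of Esr1 to -0.0015, Hsd17b11 between the ages to 0.0558 and Afp between the sexes to -0.41. With the Cy3 arrays turned, Esr1 in adults was -0.018, and the dye parts of Afp and Hsd17b2 were 0.0078 and 0.068. In the 5 animals with both orientations, adult Afp was 0.0078 and Hsd17b2 0.068. With fetal names as deposited, the embryos gave 0.14 for Afp, 0.13 for Cyp17a1 and 0.34 for Hsd17b11, Afp between the ages was -0.25, and between the sexes Afp was -0.13, Cyp17a1 -0.37, Hsd17b12 -0.18 and Igfbp1 -0.18. Moving all fetal rows gave 0.001 for Hsd17b11 between the sexes. Subtracting the dye part gave fetal values of 0.17 for Hsd17b2, 0.0273 for Hsd17b11 and 0.0089 for Hsd17b12.

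Leaving out 1 animal, genes passing ranged from 0 to 1 in adults with the mutant in Cy5, from 0 to 1 for the dye part and from 0 to 1 between the ages. In adults Afp ran from -0.10 to 0.0078, Esr1 from -0.0105 to 0.0587 and Hsd17b2 from -0.22 to 0.068. With the mutant in Cy5 Esr1 ran from -0.0161 to 0.071, and with it in Cy3 Hsd17b11 ran from -0.36 to 0.12 and Igfbp1 from -0.0908 to 0.21. The dye part of Esr1 ran from -0.0147 to 0.0402. In embryos Esr1 ran from -0.0404 to 0.017 and Hsd17b2 from -0.19 to 2e-04, and between the sexes Esr1 ran from -0.0745 to 0.069 and Hsd17b11 from -0.13 to 0.19.

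The labels share the replicate numbers 1, 3 and 5 between adult Cy5 arrays and embryos. Deviations of same-numbered samples correlated at -0.0018, -0.0027 and 0.0090. These values cannot decide on a pairing, since even the 2 orientations of the same adult correlated at -0.280 (median Spearman). The samples are adults and embryos, and the main fit does not pair them. With the numbers as a replicate block, 0 genes passed between the ages, against 8 of 16265 features (0.0492%). Cyp17a1 differed by 1.27 (limma, adjusted p = 0.604) and Hsd17b2 by 0.12. Only the arrays numbered 1, 3 and 5 inform that fit, so it had little power to keep a call.

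Over all features, counts of calls among the alternatives without a left-out animal ran from 0 to 1764 in adults, 2 to 4930 in embryos, 3 to 1579 between the ages, 0 to 2105 for the dye part and 0 to 2 between the sexes. Leaving out 1 animal gave 0 to 1649 with the mutant in Cy5, 0 to 1499 in Cy3, 638 to 2407 for the dye part, 4 to 1224 between the ages and 2 to 5 in embryos. Signal over background could not be read from ratios, so which genes lie near background is unknown.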
